A study of Mus musculus with 19 samples.

Results

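The sterol arm of cholesterol synthesis was examined in the suprarenal aorta of mice 24 h after the start of an angiotensin II (Ang II) or saline infusion. Its members were the 9 genes of the expression table, out of 20408, that carry the symbols Fdft1, Sqle, Lss, Cyp51, Msmo1, Nsdhl, Hsd17b7, Sc5d and Dhcr7. All 9 passed the filter on low values, a minimum of 10 normalized counts reached by 4 or more mice, as did 14845 genes in all. The series holds bulk RNA-Seq of 19 male mice, each a separate animal: 5 IKKb+/+ mice given Ang II, 5 IKKb+/+ mice given saline, 5 IKKb-/- mice given Ang II and 4 IKKb-/- mice given saline. The IKKb-/- mice were SMA-CreERT2 Ikkb Flox/Flox ApoE-/- and the IKKb+/+ mice were their SMA-CreERT2 ApoE-/- littermates, which the labels call wild-type. All mice lacked ApoE, were on a C57BL6 background, carried the Cre transgene, received tamoxifen, ate regular chow and are given as 8 weeks old. In the study's text tamoxifen began at 8 weeks and the infusion followed after a rest, so the mice were older when sampled. Ang II was given under the skin by osmotic pump. The labels give a dose range of 500 to 1000 ng/min/kg, and the study's text names 1000 ng/min/kg for this sequencing experiment. The Acta2 promoter drives the Cre recombinase, so Ikbkb, which encodes the kinase IKKb, was deleted in smooth muscle cells, while other cells of the vessel wall kept it.

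Cells make cholesterol in a chain of reactions in the endoplasmic reticulum. The mevalonate arm builds farnesyl diphosphate from acetyl-CoA, and the sterol arm turns it into squalene, lanosterol and finally cholesterol. When the sterol content of the endoplasmic reticulum membrane falls, SCAP carries SREBP2 to the Golgi, where proteases release its active fragment, and this transcription factor turns on the genes of both arms. Vascular smooth muscle cells, the main cells of the aortic media, take up lipoprotein cholesterol as well as making their own. The 9 members catalyse successive parts of the sterol arm. Squalene synthase (Fdft1) joins farnesyl diphosphate molecules into squalene, squalene epoxidase (Sqle) oxidises it, and lanosterol synthase (Lss) folds the product into the first sterol. Lanosterol demethylase (Cyp51), a cytochrome P450, removes a methyl group. Msmo1, Nsdhl and Hsd17b7 act in turn as oxidase, decarboxylating dehydrogenase and ketoreductase to remove the other methyl groups. Sterol C5-desaturase (Sc5d) and the last reductase (Dhcr7) then act on the double bonds of the ring system.

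The table places the members on 9 chromosomes of GRCm38: Fdft1 at chr14:63145150-63179578, Sqle at chr15:59315077-59331192, Lss at chr10:76531588-76557138, Cyp51 at chr5:4081145-4104746, Msmo1 at chr8:64718139-64733792, Nsdhl at chrX:72918557-72958514, Hsd17b7 at chr1:169949535-169969241, Sc5d at chr9:42251595-42264256 and Dhcr7 at chr7:143823145-143848410. Counts cover whole genes. In Gencode M21, Fdft1 overlaps Ctsb, Cyp51 overlaps Akap9 and Lss overlaps the antisense gene 4930483K19Rik, each on the opposite strand. The methods describe the libraries as stranded, but the strand setting behind the read counts is not given in the sources used here, so reads in these overlaps are uncertain.

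Start-site windows (250 bases before to 50 after the RefSeq start, build GRCm38.p6) were at hand for 7 of the 9 members, in 9 windows. The sterol response element, the binding site of SREBP2, often lies near a CCAAT box bound by NF-Y, so the letters TCACNNCA and CCAAT were searched on both strands and are in capitals below. The motifs were chosen after the sequences had been seen. Hsd17b7, Cyp51 and Msmo1 are shown because they were the most Ang II-responsive members with a window. Lss is shown because it had no TCACNNCA, and Dhcr7 because its level differed least between infusions. Of the 3 Dhcr7 windows, only the printed window held both motifs, and it lies downstream of the annotated gene start (143823145). The window around that start (from 143822917) held neither motif, and the window from 143823149 held TCACTTCA without CCAAT. They are given 5′ to 3′ on the strand of the gene.
Hsd17b7 (chr1:169969156-169969455, minus strand): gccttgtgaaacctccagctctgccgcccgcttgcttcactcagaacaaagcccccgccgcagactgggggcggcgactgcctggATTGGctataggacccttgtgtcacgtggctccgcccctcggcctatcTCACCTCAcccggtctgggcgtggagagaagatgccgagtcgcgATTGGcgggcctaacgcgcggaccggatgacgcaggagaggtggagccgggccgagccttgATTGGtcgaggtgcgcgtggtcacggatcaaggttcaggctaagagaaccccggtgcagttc
Cyp51 (chr5:4104648-4104947, minus strand): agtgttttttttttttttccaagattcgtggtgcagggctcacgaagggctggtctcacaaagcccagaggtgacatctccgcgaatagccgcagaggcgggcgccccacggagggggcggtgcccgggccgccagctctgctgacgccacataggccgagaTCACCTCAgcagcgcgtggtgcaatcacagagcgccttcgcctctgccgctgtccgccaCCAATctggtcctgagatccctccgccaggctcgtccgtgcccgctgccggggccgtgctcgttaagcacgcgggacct
Msmo1 (chr8:64733529-64733828, minus strand): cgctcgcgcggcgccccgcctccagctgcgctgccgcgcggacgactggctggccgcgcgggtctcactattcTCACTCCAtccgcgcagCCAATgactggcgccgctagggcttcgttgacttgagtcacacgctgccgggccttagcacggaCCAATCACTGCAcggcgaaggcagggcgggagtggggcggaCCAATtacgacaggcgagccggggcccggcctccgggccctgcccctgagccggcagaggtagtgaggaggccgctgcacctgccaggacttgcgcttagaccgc
Lss (chr10:76531355-76531654, plus strand): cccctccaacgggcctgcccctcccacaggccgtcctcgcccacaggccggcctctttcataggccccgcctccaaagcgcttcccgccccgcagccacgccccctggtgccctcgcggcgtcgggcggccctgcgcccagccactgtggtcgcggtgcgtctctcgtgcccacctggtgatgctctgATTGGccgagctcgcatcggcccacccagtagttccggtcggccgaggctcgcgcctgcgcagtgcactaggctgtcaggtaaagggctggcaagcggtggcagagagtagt
Dhcr7 (chr7:143829964-143830263, plus strand): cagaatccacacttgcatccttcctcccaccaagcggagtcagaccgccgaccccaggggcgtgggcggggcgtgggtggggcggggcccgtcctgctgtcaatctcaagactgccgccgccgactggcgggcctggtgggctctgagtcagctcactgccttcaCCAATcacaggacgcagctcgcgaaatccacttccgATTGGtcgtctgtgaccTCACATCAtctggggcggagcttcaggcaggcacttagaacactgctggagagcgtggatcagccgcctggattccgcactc

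TCACNNCA was found in 6 of the 7 members with a window (7 of 9 windows), compared with 13.8% of all 32851 windows of this length. CCAAT was found in 7 of 7 members (7 of 9 windows), compared with 37.4% of all windows. Hsd17b7 and Cyp51 held the same letters, TCACCTCA, 117 and 88 bases before the start. Msmo1 held TCACTCCA 177 bases and TCACTGCA 92 bases before the start, and the latter shares its first base with the end of a CCAAT that begins 96 bases before the start. Of the other motifs searched, the E-box CACGTG was in 3 members (3 of 9 windows, 7.15% of all windows) and the GC box GGGCGG in 7 members (8 of 9 windows, 35.7% of all windows). The motif pair was therefore present in members with large and with small differences between infusions, since Dhcr7 (in the printed window only), Sc5d and Nsdhl carried it too. A match of letters is a description of the sequence and not of binding.

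The libraries held 11382573 to 19906694 reads on genes. Values are normalized counts, the reads of a mouse divided by its size factor. Ikbkb was 673 ± 78.6 (SD, n = 5) in saline-infused and 726 ± 46.3 (n = 5) in Ang II-treated IKKb+/+ mice, and 515 ± 74.3 (n = 4) and 548 ± 87.9 (n = 5) in the IKKb-/- mice, of which 8 of 9 lay below every IKKb+/+ mouse. Each group comes from its own run of mouse numbers, and no batch is named, so a batch and a group cannot be told apart.

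In aortas of saline-infused IKKb+/+ mice all 9 enzymes were expressed. Per kilobase of the principal transcript, Msmo1 had the highest level (205 normalized counts per kb, 174 to 285 over 5 mice) and did not overlap the next gene. It was followed by Sc5d (110.3 per kb), Sqle (109 per kb), Cyp51 (103 per kb), Nsdhl (81.4 per kb), Fdft1 (59.3 per kb) and Lss (45.3 per kb). Dhcr7 (28.5 per kb, 22.8 to 39.0) and Hsd17b7 (18.8 per kb, 13.0 to 26.6) were lowest. From Sc5d downward, each gene's range overlapped that of its neighbour in this order. The order depends on the length used. Over all annotated exons, which for Msmo1 cover 6.14 kb against 2.04 kb in the principal transcript, Sc5d (108.5 per kb) and Cyp51 (91.7 per kb) came before Msmo1 (68.4 per kb), and their ranges overlapped. On that length Lss (19.6 per kb), Hsd17b7 (16.9 per kb) and Dhcr7 (13.8 per kb) were lowest.

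With Ang II, transcripts of most of the 9 members were higher in the IKKb+/+ aorta. Of the 9 members, 6 rose (Fdft1, Sqle, Cyp51, Msmo1, Nsdhl and Hsd17b7) and none fell, where 4.33% of all tested genes rose. Calls needed a limma p below 0.1 after Benjamini-Hochberg adjustment over all tested genes, together with a change of more than 1.2-fold. The median log2 fold change of the members was 0.95, beside 0.01 over all tested genes. The rises ran from 1.47-fold for Nsdhl to 2.89-fold for Sqle. Lss, Sc5d and Dhcr7 had log2 fold changes of 0.56, 0.42 and 0.19 and did not pass.

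Fdft1 stands at the branch point between sterols and the other products of farnesyl diphosphate. Its normalized counts were 299, 187, 161, 191 and 258 with saline and 817, 270.0, 478, 357 and 326 with Ang II in IKKb+/+ mice (mice in numerical order, here and below). In 4 of 5 Ang II-treated mice the level was above every saline-infused mouse. The log2 fold change was 0.95 ± 0.28 (SE, adjusted p = 0.0544, limma). Its neighbour Sqle, a rate-controlling enzyme of the pathway, had 474, 291, 264, 253 and 222 with saline and 2137, 606, 499, 818 and 786 with Ang II. It was the only member whose groups did not overlap, which held for 3.95% of all tested genes in this direction. The log2 fold change of Sqle was 1.53 ± 0.37 (adjusted p = 0.0258, limma). The highest saline value, 474 in mouse X2370, lay just under the lowest Ang II value, 499 in mouse X2356.

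Lss, which closes the sterol rings, was at 320.1, 188, 171, 149 and 229.5 with saline and at 449, 237, 226, 272 and 374 with Ang II. Only 2 of 5 Ang II-treated mice were above all saline-infused mice. The log2 fold change of Lss was 0.56 ± 0.25 (adjusted p = 0.221, limma).

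Cyp51 had 592, 384, 340.1, 406 and 303 with saline and 2053, 619, 509, 902 and 857 with Ang II, a log2 fold change of 1.14 ± 0.29 (adjusted p = 0.0351, limma). Apart from X2356, each Ang II-treated mouse was above the saline range. Msmo1, the methyl oxidase, had 582, 408, 394, 361 and 355 with saline and 2580.2, 564, 587, 938 and 859.8 with Ang II, a log2 fold change of 1.17 ± 0.33 (adjusted p = 0.0498, limma). Here X2352 at 564 lay within the saline range, whose top was again X2370. The ketoreductase Hsd17b7 had 122, 86.5, 87.2, 59.8 and 76.5 with saline and 557, 122, 160.2, 264 and 212 with Ang II. Its log2 fold change was 1.42 ± 0.32 (adjusted p = 0.0171, limma), the smallest adjusted p of the 9. Nsdhl works between Msmo1 and Hsd17b7 in the same methyl removal and had 240.2, 141, 146, 166 and 189 with saline and 361, 241, 254, 229 and 216 with Ang II. Its log2 fold change was 0.56 ± 0.18 (adjusted p = 0.0755, limma), with a 95% interval of 0.19 to 0.93, while the interval of Hsd17b7 was 0.76 to 2.09. The difference between these 2 genes was not tested.

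Sc5d had 749, 453, 436, 498 and 505 with saline and 1013, 617, 604, 637 and 672 with Ang II. The 4 saline-infused mice other than X2370 were below every Ang II-treated mouse, whereas X2370 at 749 was above 4 of them. The log2 fold change of Sc5d was 0.42 ± 0.16 (adjusted p = 0.14, limma). Dhcr7, the last reductase, had 109.8, 64.3, 64.3, 72.2 and 90.9 with saline and 84.6, 64, 144, 65.9 and 113 with Ang II. The groups lay across each other and the log2 fold change of Dhcr7 was 0.19 ± 0.25 (adjusted p = 0.724, limma), with a 95% interval of -0.34 to 0.72.

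**Figure D1:**
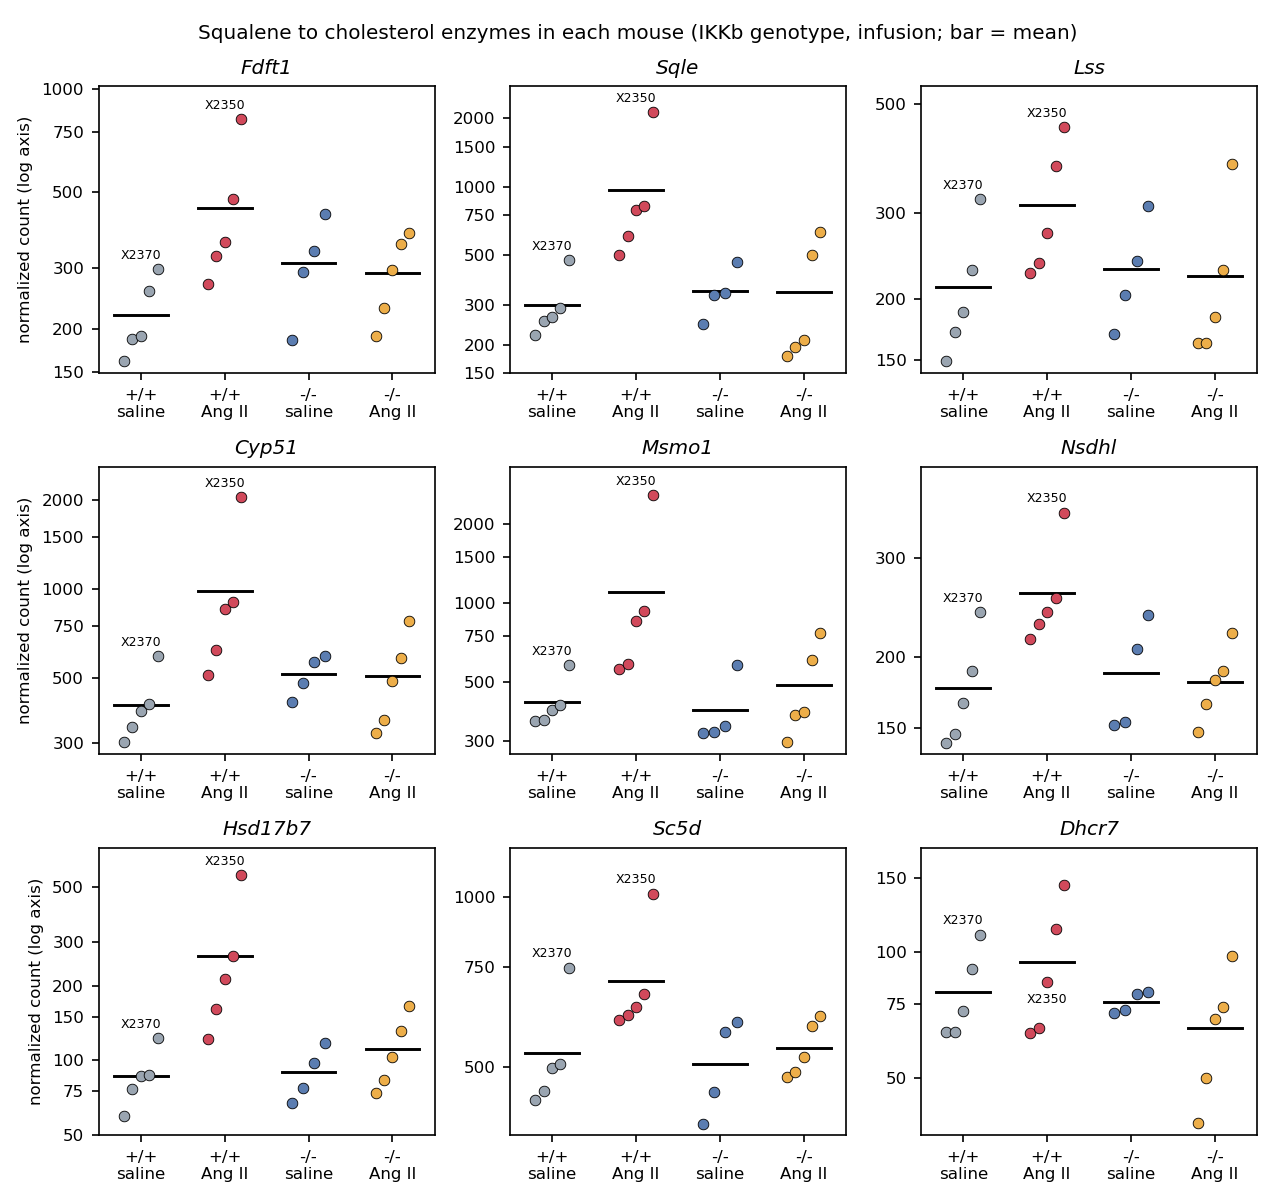
Normalized counts of the 9 genes (vertical log axis) in each mouse of the 4 groups (horizontal axis, genotype and infusion), where each point is a mouse and each bar a group mean. For Sqle, Ang II-treated IKKb+/+ mice reach from 499 to 2137 and the saline-infused from 222 to 474, while the IKKb-/- groups lie at 178 to 628 and 247 to 463.

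One mouse carried much of the height of the Ang II-treated IKKb+/+ group. X2350 had the highest value of its group in 8 of the 9 genes, Dhcr7 being the exception, and its Msmo1 count of 2580.2 compared with 938 in the next mouse. As a summary, the log2 value of each gene was centred on its mean over the 19 mice and averaged over the 9 genes. This mean was 1.47 in X2350 and 0.12 to 0.56 in the other 4 mice of the group. It was 0.26 in saline-infused X2370 and -0.49 to -0.33 in the other 4 of that group. Without X2350, 3 members passed (Sqle 1.19, Cyp51 0.83 and Hsd17b7 1.10 on the log2 scale) and 6 did not, where 1.42% of all tested genes rose. Leaving out X2358 or saline-infused X2376 also left these 3 members, leaving out X2372, X2373 or X2378 left 4, and leaving out X2370 gave 7, with Sc5d added. Of all tested genes, 1.45% rose without X2358, 2.3% without X2376, 3.33% without X2372, 3.12% without X2373, 2% without X2378 and 2.89% without X2370. Without X2350 and X2370 together, 3 members passed, where 0.951% of all tested genes rose, and the log2 fold changes of the 9 were 0.33 to 1.37. All 9 log2 fold changes stayed above 0 in each of these fits.

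**Figure D2:**
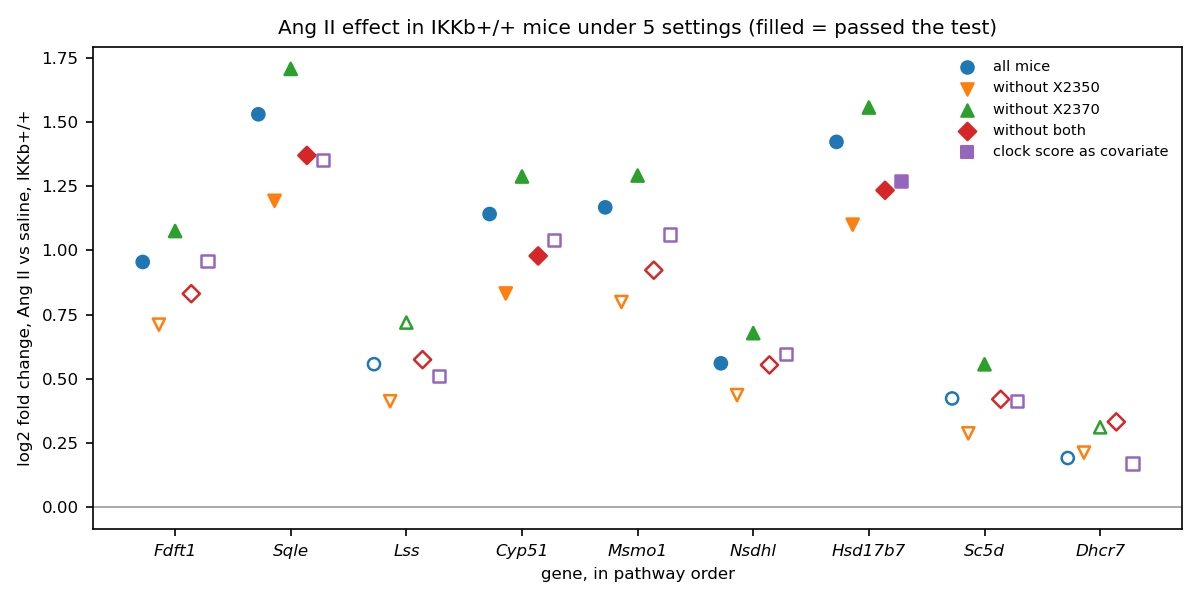
Log2 fold change of Ang II against saline in IKKb+/+ mice (vertical axis) for each gene in pathway order (horizontal axis), with all mice, without X2350, without X2370, without both and with the clock score as a covariate. Filled symbols passed the test; Sqle lies between 1.19 and 1.71 in the 5 settings and Dhcr7 between 0.17 and 0.33.

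Other measures were compared between the infusions in IKKb+/+ mice, and not all of them differed. The summed level of the 6 smooth muscle markers (Myh11, Acta2, Tagln, Cnn1, Smtn, Lmod1) was 331003 to 438667 normalized counts with saline and 458946 to 633459 with Ang II, and 2 of the 6 passed, both higher. The 5 endothelial markers summed to 19562 to 34012 with saline and 10798 to 21748 with Ang II, with a median log2 fold change of -0.62 and 1 of 5 called lower. The 5 fibroblast markers summed to 101556 to 148537 and 72212 to 127899, with a median of -0.57 and 1 of 5 called lower. The macrophage markers had a median of -0.53 with 0 of 5 called, and the skeletal muscle markers had a median of 1.19 with 1 of 3 tested called higher. Beside these marker counts, 643 of all 14845 tested genes were called higher and 643 lower. In bulk tissue, fewer cells of a type and less RNA per cell cannot be told apart. The part of these markers in the members' rise was not tested. The clock score, the mean centred log2 level of 9 evening genes (Per, Rev-erb and PAR-bZIP genes) minus that of 4 morning genes (such as Arntl), was -2.89 to 2.22 with saline and -2.01 to -1.21 with Ang II. With this score in the fit only Hsd17b7 passed (adjusted p = 0.0746, limma), where 1.38% of all tested genes rose, and the 9 log2 fold changes were 0.17 to 1.35. With the white adipocyte score in the fit the same 6 members passed, where 4.68% of all tested genes rose. Of 7 adrenal cortex markers, 2 were measured here (Star and Mc2r), and their summed level was at most 93.6 in any IKKb+/+ mouse.

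In IKKb-/- mice, Ang II against saline gave no called member, where 5.29% of all tested genes were called in either direction (limma). None of the 9 had an unadjusted p under 0.05, beside 17.8% of all tested genes. On the recovered reads edgeR and DESeq2 also called 0 members, beside 722 and 1164 of all 14845 tested genes. The log2 fold changes lay between -0.27 (Dhcr7) and 0.28 (Hsd17b7), and 3 of 9 were above 0. The intervals do not show that nothing changed: that of Sqle was -1.01 to 0.63 and that of Hsd17b7 was -0.43 to 0.98. Sqle had 332, 340.3, 247 and 463 with saline and 628, 497, 209, 178 and 195 with Ang II. The Ang II-treated mice fell on both sides of the saline range, X2380 and X2383 above it and the other three below it. Msmo1 had 342, 320.3, 324 and 583 with saline and 768, 608, 386, 297 and 374 with Ang II, again with X2380 and X2383 on top. Cyp51 had 481, 594, 413 and 567 with saline and 777, 582, 486, 359.7 and 325 with Ang II, and Hsd17b7 had 97.5, 67.4, 77.5 and 118 with saline and 165, 131, 104, 73.9 and 83.5 with Ang II. The same pair of Ang II-treated mice was highest in all 4 of these genes.

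The levels of the other 5 members overlapped between infusions as well. Fdft1 had 292, 185, 337 and 432 with saline and 379.8, 353, 297, 229.6 and 190.2 with Ang II. Nsdhl had 152, 154, 207 and 238 with saline and 165, 221, 189, 148 and 183 with Ang II. For both genes the group means differed by less than 1 SD of either group. Lss ranged from 169.9 to 309.9 with saline and from 162 to 377 with Ang II, Sc5d from 396 to 599 and from 479 to 614, and Dhcr7 from 71.4 to 80.1 and from 39.1 to 97.6. The mean over the 9 genes was 0.21 in X2380 and 0.27 in X2383, and -0.53 to -0.38 in the other 3 Ang II-treated mice. Saline-infused X2409 stood at 0.19 and the other 3 at -0.35 to -0.21.

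**Figure D3:**
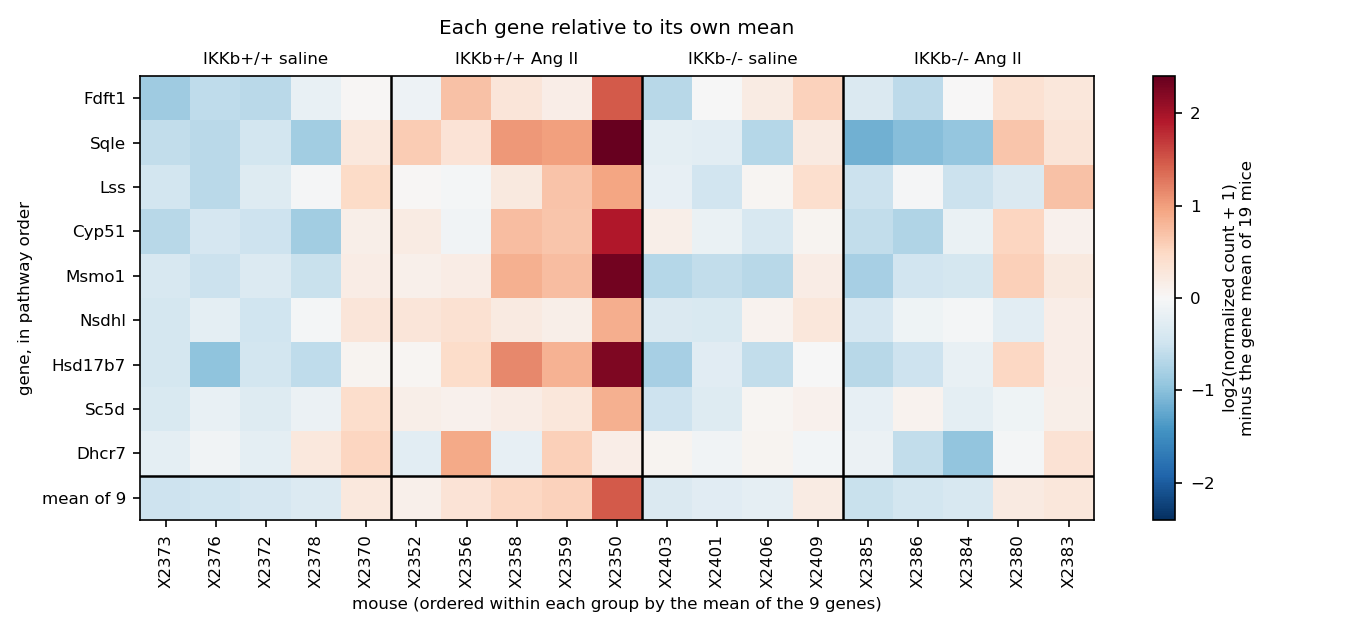
Colour gives log2(normalized count + 1) of each gene (rows, in pathway order) in each mouse (columns) minus that gene's mean over 19 mice, and the lowest row gives the mean of the 9 genes. Within groups most rows shift together, from -0.53 in X2385 to 1.47 in X2350 for the mean, while the Dhcr7 row follows less closely.

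The direct comparison of the 2 Ang II effects asks whether the deletion in smooth muscle changed the response. All 9 differences (the effect in IKKb-/- minus that in IKKb+/+ mice) were below 0, from -1.72 for Sqle to -0.32 for Sc5d, with a median of -0.90. Over all tested genes the median was -0.002, and 49.8% were above 0. Without X2350 the difference was -1.38 for Sqle and -0.18 for Sc5d. The 9 members varied together from mouse to mouse, so these are not 9 independent results. None of the 9 passed, and over all tested genes limma called 0% (smallest adjusted p = 0.215). Unadjusted, 5 of the 9 had p under 0.05, as had 11.1% of all tested genes. No member was called by edgeR or DESeq2, which called 3 and 279 of all 14845 tested genes. The difference of Sqle was -1.72 ± 0.54 (SE, 95% interval -2.84 to -0.59, adjusted p = 0.288, limma) and that of Cyp51 was -1.22 ± 0.43 (interval -2.12 to -0.32, adjusted p = 0.329). The effect in IKKb+/+ mice is therefore not shown to differ from that in IKKb-/- mice by this test. The white adipocyte score and the clock score differed between the infusions in IKKb-/- mice. The adipocyte score was -0.47 to 3.57 with Ang II, beside -3.34 to -0.95 with saline. The clock score was -0.88 to 0.49, beside 2.23 to 4.24. In that genotype 5 of 5 tested white adipocyte markers were called higher with Ang II, as were 385 of all 14845 tested genes.

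With saline, no member was called between IKKb-/- and IKKb+/+ mice, where 5.47% of all tested genes were called (limma). No member had an unadjusted p under 0.05, beside 19.2% of all tested genes. No member was called by edgeR or DESeq2 either, beside 835 and 1437 of all 14845 tested genes. The log2 fold changes of IKKb-/- against IKKb+/+ mice were -0.12 (Msmo1) to 0.48 (Fdft1), and 6 of 9 were above 0. Fdft1 was 219 ± 57.1 (SD, n = 5) in IKKb+/+ and 312 ± 102 (n = 4) in IKKb-/- mice, with 2 of 4 IKKb-/- mice above all IKKb+/+ mice, and an interval of -0.14 to 1.09. Clock genes differed in this comparison (8 of 9 evening genes higher in IKKb-/- mice), and the clock score lay between 2.23 and 4.24 in the IKKb-/- mice.

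With Ang II, all 9 members had lower means in IKKb-/- than in IKKb+/+ mice, while 49.1% of all tested genes were higher. None of the members passed the test, where 0.108% of all tested genes were called lower (limma). Unadjusted, 6 of 9 had p under 0.05, as had 14.3% of all tested genes. The log2 fold changes were -1.50 ± 0.37 for Sqle (limma, adjusted p = 0.153), -1.08 ± 0.32 for Hsd17b7 (adjusted p = 0.177), -1.02 ± 0.33 for Msmo1 (adjusted p = 0.212) and -0.86 ± 0.29 for Cyp51 (adjusted p = 0.221). For the other five they were -0.56 to -0.37. No member had groups that did not overlap, beside 0.882% of tested genes lower without overlap. For Sqle, the IKKb+/+ mice had 499 to 2137 and 4 of 5 IKKb-/- mice were below all of them, X2380 at 628 being the exception. For Nsdhl and Sc5d, too, 4 of 5 IKKb-/- mice lay below every IKKb+/+ mouse. DESeq2 on the recovered reads called 4 members lower (Sqle, Cyp51, Msmo1 and Hsd17b7), where it called 2.43% of all tested genes lower, and edgeR called 0 members and 0.0876% of genes. Leaving out X2356 gave the same 4 (2.51% of tested genes lower), leaving out X2380 gave 3 (1.38%) and leaving out X2383 gave 1 (0.594%). Without X2350 none passed (0% of tested genes lower), Sqle being at -1.16.

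**Figure D4:**
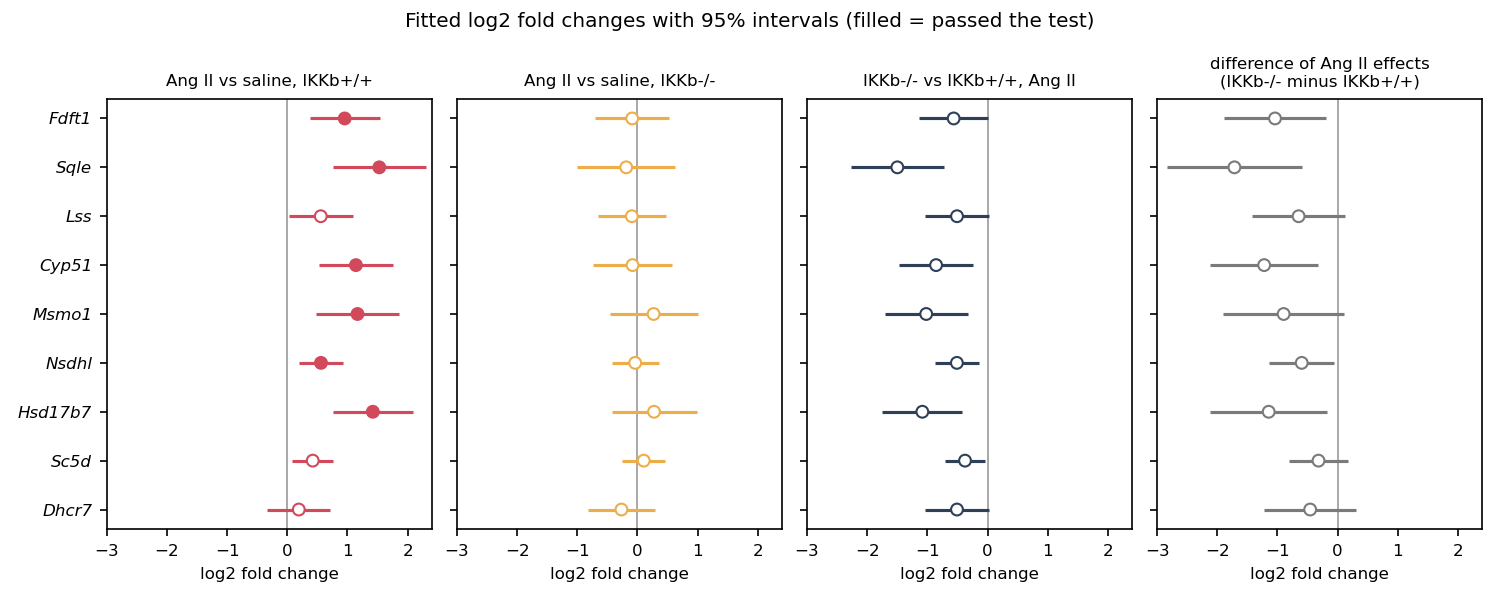
Fitted log2 fold changes (horizontal axis) with 95% intervals for the 9 genes (rows, in pathway order) in 4 comparisons, with filled points for genes that passed. In IKKb+/+ mice 6 points are filled, from 0.56 to 1.53, and in the other panels no point is filled, with Sqle lowest in the 2 panels that set the genotypes against each other (-1.50 and -1.72).

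The members varied together from mouse to mouse. Over the 19 mice the median Pearson r of the 36 gene pairs was 0.76 (Spearman 0.63), from 0.25 for Cyp51 with Dhcr7 to 0.97 for Msmo1 with Hsd17b7. After each group's mean was subtracted it was 0.61, and with X2350 left out as well it was 0.50. Without the 2 mice farthest from the median, X2350 and X2359, it was 0.58. Sqle, Cyp51, Msmo1 and Hsd17b7 kept pair values of 0.86 or more within groups, and Nsdhl and Sc5d formed another close pair (0.88). Dhcr7 had a median r of 0.38 with the others over all mice and 0.25 within groups. With X2350 left out these were 0.42 and 0.34. Within groups the lowest pairs were then Cyp51 with Dhcr7 and Cyp51 with Nsdhl (0.18 each). These values describe the same 19 libraries, are shaped by shared size factors and by X2350, and carry no test.

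**Figure D5:**
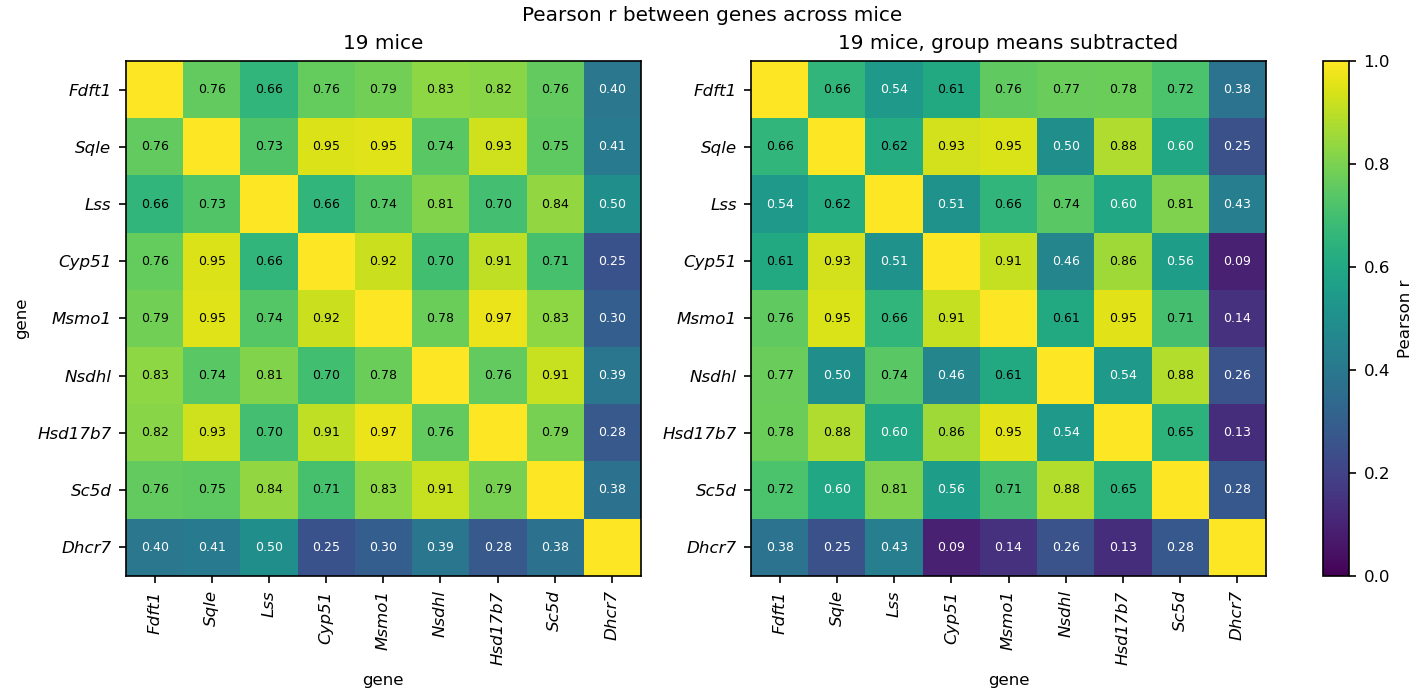
Pearson r between each pair of the 9 genes (rows and columns) across 19 mice, on centred log2 values, before (left) and after (right) group means were subtracted. The block of Sqle, Cyp51, Msmo1 and Hsd17b7 lies at 0.91 to 0.97 on the left and 0.86 to 0.95 on the right, and the Dhcr7 row is lowest in both (0.25 to 0.50 and 0.09 to 0.43).

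The genes most like the members were sought among 11409 other tested genes with a mean of at least 50, by Pearson r with the mean over the 9 members. The 10 nearest of these over the 19 mice were Slc41a3 (0.93), Emd (0.88), Rdh11 (0.87), Micall1 (0.86), Ehd2 (0.86), Ptbp1 (0.86), Hmgcs1 (0.86), Eno1 (0.85), Vcp (0.85) and Actr1a (0.85). Hmgcs1 encodes a synthase of the mevalonate arm. After subtraction of group means, the 10 were Slc41a3 (0.93), St3gal3, Fads1, Tmem164, Acsl3, Ptprf, Ccdc102a, Srebf2 (0.82), Adamts9 and Tango6, so 1 of the 10 was shared. Srebf2 encodes SREBP2. Without X2350, 4 were shared (Slc41a3, Ehd2, Vcp and Actr1a), with Slc41a3 (0.87) again nearest. No test was applied to this likeness.

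The other genes of cholesterol handling were compared by lists, with the Ang II effect in IKKb+/+ mice first. In the mevalonate arm 5 of the 8 genes compared rose, where 4.33% of all tested genes rose. The 8 had a median log2 fold change of 0.94. The 5 that rose were Fdps (2.42), Idi1 (1.36), Mvd (1.25), Hmgcs1 (1.05) and Mvk (0.84). Mvk and Mvd encode the kinase and the decarboxylase that act on mevalonate and its diphosphate, and Fdps the synthase of farnesyl diphosphate. Fdps and Idi1 had low counts, with means of 9.37 (saline) and 43.3 (Ang II) for Fdps and 16.7 and 51.9 for Idi1. Acat2, Pmvk and Ggps1 did not pass. Without X2350, 2 of the 8 passed, as with the clock score in the fit, and 3 passed without X2373 or without X2378. Of all tested genes, 1.42% rose without X2350, 1.38% with the clock score, 3.12% without X2373 and 2% without X2378. Of the sterol arm enzymes outside the members, Ebp, Lbr and Tm7sf2 were compared, with log2 fold changes of 0.19, 0.10 and 0.25. Of these, 0 of 3 passed in limma, edgeR or DESeq2. None had an unadjusted p under 0.05, beside 20.3% of all tested genes.

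Of 4 tested uptake and transport genes, 1 rose, Tmem97, a sterol-regulated membrane protein (0.66, adjusted p = 0.0435, limma). It did not pass without X2350, without X2358, without X2376 or with the clock score in the fit. Of 6 redox partners and scaffold proteins, 1 rose: Por, the reductase that passes electrons to Cyp51 and Sqle (0.93, adjusted p = 0.0463, limma). It did not pass without X2350 or without X2358. Of the 7 genes of the SREBP machinery 0 passed. Only 2 of the 7 were above 0, Insig1 at 0.53 and Srebf2 at 0.38, and the list median was -0.06. Of 6 efflux, storage and LXR genes, and of 5 genes for degradation of pathway enzymes, 0 passed. In these IKKb+/+ mice, the called genes of these lists were 5 mevalonate enzymes, Tmem97 and Por. Of all 14845 tested genes, limma called 643 higher and 643 lower. Unadjusted, 11 of the 40 genes of the 7 lists had a limma p under 0.05, beside 20.3% of all tested genes.

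In IKKb-/- mice, Ang II called 1 of the 40 genes of the same 7 lists in limma, while edgeR called 2 and DESeq2 called 4. The 40 are the measured genes of the lists, and of their 5 uptake and transport genes 4 passed the filter and were tested. Over all 14845 tested genes limma, edgeR and DESeq2 called 785, 722 and 1164. Unadjusted, 8 of the 40 had p under 0.05, as had 17.8% of all tested genes. The gene called in limma was Nr1h3, which encodes the oxysterol receptor LXR alpha (adjusted p = 0.00566, limma). Its means were 68.4 normalized counts with saline and 187 with Ang II. Nr1h3 was not called with the white adipocyte or the clock score in the fit. Tmem97 means were 119 with saline and 176 with Ang II in this genotype (limma, adjusted p = 0.121). For the difference of effects limma, edgeR and DESeq2 called 0 genes of the 7 lists. Unadjusted, 10 of the 40 had p under 0.05, beside 11.1% of all tested genes. Between the genotypes with Ang II, limma, edgeR and DESeq2 called 0. Here 7 of the 40 had an unadjusted p under 0.05, beside 14.3% of all tested genes. With saline limma, edgeR and DESeq2 called 0, and 4 of the 40 had an unadjusted p under 0.05, beside 19.2%. In the genotype comparison with Ang II, 7 of 8 mevalonate arm genes were below 0, while 49.1% of all tested genes were above 0. The 8 had a median log2 fold change of -0.48, beside -0.006 over all tested genes.

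Markers of other cells that a bulk aorta can hold were summed in each mouse. Endothelial markers had a median sum of 29498 normalized counts in IKKb+/+ saline, 20271 in IKKb+/+ Ang II, 17513 in IKKb-/- saline and 14835 in IKKb-/- Ang II. For fibroblast markers the medians were 142461, 93714, 104016 and 115571 in the same order. Macrophage markers (5) were 2397 to 9317 over all mice. White adipocyte markers (6) were 185 to 12495 in IKKb+/+ saline, 834 to 5122 in IKKb+/+ Ang II, 267 to 1337 in IKKb-/- saline and 1630.3 to 29753 in IKKb-/- Ang II, where Lep was at 0 in 4 of the 19 mice. Brown adipocyte markers (5) were highest in IKKb-/- Ang II mouse X2384 (1925), Schwann cell and neuron markers (6) in IKKb+/+ Ang II mouse X2356 (6061) and skeletal muscle markers (4 measured) in IKKb+/+ Ang II mouse X2358 (475). Hepatocyte markers (4 measured) reached 358 in IKKb-/- saline and 64.6 in the other groups, with Ttr at 0 in 11 mice. T and B cell markers (4) reached 50.3. X2350, with the highest mean over the members, had the lowest fibroblast sum of its group (72212) and was highest in its group in none of the marker sums. What these cells contribute to the members' levels was not tested.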

How the data were processed

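RNA of the suprarenal aorta of 19 male mice was sequenced as poly(A) single-end libraries. According to the study's methods and the submitters' processing notes, reads were trimmed with Trimmomatic 0.35, aligned to GRCm38 with STAR 2.7.1a, which also gave read counts, and the gene read counts were scaled with DESeq2 1.30.1 (RSEM gave TPM values, which were not used here). The deposited signal values are the authors' DESeq2-normalized counts per gene. Each value was a whole multiple of what 1 read is worth (100% of values, tolerance 0.05 reads), which gave 11382573 to 19906694 reads per mouse. The 36 pairs of mice within groups correlated at 0.947 to 0.980 and no library was a duplicate.

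Values were analysed here as log2(value + 1) in limma 3.58.1 (R 4.3.3), so fold changes of low genes are understated. One fit held the 4 group means, with a trended prior variance and genes at 10 or more in 4 or more mice. P-values are two-sided and Benjamini-Hochberg adjusted over 14845 genes. The count tests of edgeR 4.0.16 and DESeq2 1.42.0 on the recovered reads were alternatives, as were another pseudocount (4), no filter, quality weights, TMM scaling, adipocyte and clock score covariates, smaller fits, other thresholds and each mouse left out. The limma script was tested on simulated data. The members and lists were chosen with earlier results of these data known. All 9 members are named, and of the other lists the genes called (at most 6 a list), with uncalled genes added after their values were seen. The removal of X2350 and X2370 together, the levels over all exons and the promoter motifs were chosen after seeing the data. Some genes of the lists are not reported here, and the list counts and the search for like genes are given without them.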

Additional observations from a re-analysis of the deposited data

Results flagged for a closer look

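Single mice stood apart from their group in 9 of the 36 sets of values examined (9 genes in 4 groups), where the gap to the nearest mouse was a large share of the range of the group by Dixon's test. Chance flags about 1 in 20 groups, and the 9 genes share the same mice. Among Ang II-treated IKKb+/+ mice, X2350 was highest, with a gap of 0.805 of the range for Sqle (2137 against 818 normalized counts in the next mouse), 0.746 for Cyp51 (2053 against 902), 0.814 for Msmo1 (2580.2 against 938), 0.733 for Nsdhl (361 against 254) and 0.835 for Sc5d (1013 against 672). Among saline-infused IKKb+/+ mice, X2370 was highest, with a gap of 0.723 for Sqle (474 against 291), 0.765 for Msmo1 (582 against 408) and 0.779 for Sc5d (749 against 505). X2370 also had the highest white adipocyte marker sum of its group, 12495. Among saline-infused IKKb-/- mice, X2409 was highest for Msmo1, with a gap of 0.918 (583 against 342).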

How the results depend on the processing

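Of the member counts, 55 of 58 under other settings and 51 of 57 with a mouse left out stayed within 1.5 times the value reported. The count reported was 0 in every comparison but Ang II in IKKb+/+ mice, and a 0 that stayed 0 was taken as unchanged. So was a change from 6 to 4. For Ang II in IKKb+/+ mice, 6 members became 1 with the clock score in the fit, 3 without X2350 and X2370 together, and 3 to 7 with single mice left out. Between genotypes with Ang II, 0 became 4 in DESeq2 and 0 to 4 with single mice left out. The cause was not tested. Of the member log2 fold changes, 491 of 522 under other settings and 469 of 513 with a mouse left out kept direction and call. Those that changed sign had not passed. For Ang II in IKKb-/- mice, the adipocyte score gave 0.26 for Sqle and 0.056 for Lss, quality weights gave 0.0098 for Lss and 0.041 for Nsdhl, and the clock score gave 0.054 for Nsdhl and -0.088 for Hsd17b7. Between genotypes with saline, the adipocyte score gave -0.012 for Sqle, -0.14 for Hsd17b7 and 0.032 for Dhcr7, the clock score 0.13 for Msmo1, -0.0034 for Nsdhl and 0.00020 for Dhcr7, quality weights -0.018 for Nsdhl, and removal of X2350 and X2370 0.0020 for Msmo1, 0.077 for Sc5d and 0.069 for Dhcr7. With single mice left out, Ang II in IKKb-/- mice gave -0.31 to 0.091 (Fdft1), -0.30 to 0.061 (Lss), -0.25 to 0.060 (Cyp51), -0.13 to 0.086 (Nsdhl) and -0.0045 to 0.19 (Sc5d). Genotype with saline gave -0.012 to 0.30 (Lss), -0.33 to 0.0020 (Msmo1), -0.035 to 0.21 (Nsdhl), -0.076 to 0.20 (Hsd17b7), -0.15 to 0.077 (Sc5d) and -0.12 to 0.069 (Dhcr7).

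Counts over all genes moved too. For Ang II in IKKb+/+ mice, 1286 became 2074 with quality weights, 451 with the clock score and 296 without X2350 and X2370. In IKKb-/- mice, 785 became 10 with the adipocyte and 20 with the clock score. Between genotypes, 812 with saline became 1902 with quality weights and 0 with the clock score, and 19 with Ang II became 521 in DESeq2. The difference of effects, 0 in limma, was 3 in edgeR and 279 in DESeq2. With single mice left out, the counts were 431 (X2350) to 1918 (X2356) for Ang II in IKKb+/+ mice, 433 (X2406) to 1082 (X2383) in IKKb-/- mice, 24 (X2406) to 1727 (X2409) between genotypes with saline, 0 (X2350, X2352, X2358 or X2384) to 553 (X2356) between genotypes with Ang II, and 0 to 79 (X2356) for the difference, so the shares of called genes beside the member counts move with single mice. The numbers of mice, 4 or 5 a group, limit the precision of these tests. No paired analysis was possible because each group has its own mouse numbers.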
